A study of Mus musculus with 12 samples.

Results

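Thbs1, Thbs2, Spp1, Postn, Tnc, Sparc, Fn1 and Ahnak are the genes described here, 8 of the 23406 genes in the deposited table, and they were selected by name as abundant matricellular protein genes. Matricellular proteins are secreted into the extracellular matrix but act mainly as regulators there, binding cell receptors, growth factors and proteases, and only in a lesser way as structural fibres. That description holds for the thrombospondins, osteopontin (Spp1), periostin (Postn), tenascin C (Tnc) and SPARC. Fn1 encodes fibronectin, a structural matrix glycoprotein, and Ahnak encodes a very large scaffold protein inside the cell, so Ahnak is no matrix gene. The members were picked for their high levels, so levels are given as a description without a test, and tests are confined to differences between groups.

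The libraries are total RNA from mammospheres, the spheres that mammary cells form in suspension culture, at passage 2 and derived from C57BL/6J mice. There were 4 groups of 3 libraries: wild type (WT) mice of 2 months (young) and of 12 months (aged), and mice of those ages without p66Shc, the longest of the Shc1 proteins (KO). All groups share the C57BL/6J background, and no agent is named for any of them. It is not stated whether each library came from its own mouse and culture, so p-values measure the spread between libraries, which may be technical. Libraries held 31845169 to 109079737 reads in genes, the most in replicate 3 of aged KO, and 3 reads stood for 0.0290 to 0.0859 CPM (CPM being the deposited read count relative to the library total). Shc1, summed over all its isoforms, measured 296 ± 25.3, 211 ± 8.44, 208 ± 0.329 and 170 ± 7.60 CPM (SD, n = 3) in young WT, aged WT, young KO and aged KO, which checks the knockout label only in part because the other Shc1 proteins are left intact. The label mammosphere was checked against markers of the cell types of the gland. The 10 fibroblast markers summed to between 7507 and 12497 CPM, while the 10 luminal epithelial markers summed to 341 to 545 CPM in young WT and both KO groups and to 3871 to 3990 CPM in aged WT. In bulk RNA, fewer cells of a type and less RNA per cell cannot be told apart.

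In the mammary gland, fibroblasts, the basal epithelium and immune cells secrete these proteins, and they are known to rise around developing ducts, in wound repair and in the stroma of tumours. Thrombospondin 1 and 2 are trimeric glycoproteins that bind CD36 and CD47 and restrain blood vessel growth, and thrombospondin 1 can also release TGF-beta from its latent complex. Osteopontin, periostin, tenascin C and fibronectin are ligands of integrins, and osteopontin also binds CD44. SPARC binds collagen and helps its fibres assemble.

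Upstream sequences are shown for 4 members because they fell into pairs in the age comparisons described later: Thbs2 and Spp1 fell with age in WT but not in KO, and Tnc and Sparc fell in both genotypes. Each sequence holds the 250 bases before the RefSeq start site on GRCm38.p6, 5′ to 3′ on the strand of the gene, and lies at chr17:14694263-14694512 (minus strand) for Thbs2, chr5:104434861-104435110 (plus) for Spp1, chr4:64047016-64047265 (minus) for Tnc and chr11:55420081-55420330 (minus) for Sparc. Capitals mark matches on either strand to TATAAA, the core of the TATA box, to the CCAAT box, or to GGGCGG, the GC box.
Thbs2: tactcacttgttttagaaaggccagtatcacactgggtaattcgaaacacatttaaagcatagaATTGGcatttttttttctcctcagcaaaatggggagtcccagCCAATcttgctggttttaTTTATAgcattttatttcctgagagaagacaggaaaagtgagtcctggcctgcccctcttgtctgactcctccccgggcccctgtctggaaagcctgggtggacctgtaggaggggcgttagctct
Spp1: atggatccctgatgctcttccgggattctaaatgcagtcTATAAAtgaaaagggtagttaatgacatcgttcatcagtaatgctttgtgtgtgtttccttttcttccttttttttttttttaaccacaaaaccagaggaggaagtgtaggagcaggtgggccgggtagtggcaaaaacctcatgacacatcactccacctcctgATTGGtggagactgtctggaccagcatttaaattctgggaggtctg
Tnc: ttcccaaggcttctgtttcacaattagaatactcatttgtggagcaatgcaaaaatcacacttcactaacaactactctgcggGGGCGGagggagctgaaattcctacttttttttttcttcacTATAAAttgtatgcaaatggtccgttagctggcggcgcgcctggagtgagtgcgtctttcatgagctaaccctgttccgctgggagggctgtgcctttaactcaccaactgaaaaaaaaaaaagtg
Sparc: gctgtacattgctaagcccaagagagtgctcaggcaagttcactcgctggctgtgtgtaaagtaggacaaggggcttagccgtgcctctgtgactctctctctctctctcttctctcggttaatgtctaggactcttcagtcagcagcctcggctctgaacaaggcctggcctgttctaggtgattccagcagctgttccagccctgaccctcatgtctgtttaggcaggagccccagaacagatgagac
The search used 5 motifs over the 300 bases from 250 before to 50 after the start, on both strands, and no match overlapped another. Of the 9 start sites in the RefSeq table for 6 of the members, the counts use only the 1 per gene that equals the deposited gene start. TATAAA was found in 4 of these 6 (Thbs2, Spp1, Postn and Tnc), against 13.6% of the 32851 promoters of this length. In Thbs2 and Tnc it began 126 bases before the start, in Spp1 211 and in Postn 26 bases before it. CCAAT was found in Thbs2 and Spp1, against 37.4% of all promoters, and also at an alternative start site of Postn outside these counts. GGGCGG was found in Tnc and in Ahnak, which held 4 copies, against 35.7% of all promoters. GGAATG was found in Ahnak alone, against 14.7%, and TGANTCA in none of the 6, against 7.81%. The Sparc sequence held none of the 5 motifs. A match describes the letters in this window and no more.

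The levels of the 8 genes spanned 1808 to 10883 CPM as means over the 12 libraries. Thbs2 had the highest mean CPM of all genes in the table at 10883 CPM, Spp1 ranked 2 with 10086 CPM and Ahnak ranked 3 with 6431 CPM. Tnc (3334 CPM) ranked 17, Postn (2415 CPM) 25, Sparc (2239 CPM) 32, Thbs1 (1909 CPM) 37 and Fn1 (1808 CPM) 40. The ranks moved between groups: Thbs2 was at rank 1 in young WT and in both KO groups and at rank 4 in aged WT, where Ahnak was at rank 1. Ahnak was at rank 14 in young WT, 12 in young KO and 3 in aged KO.

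**Figure D1:**
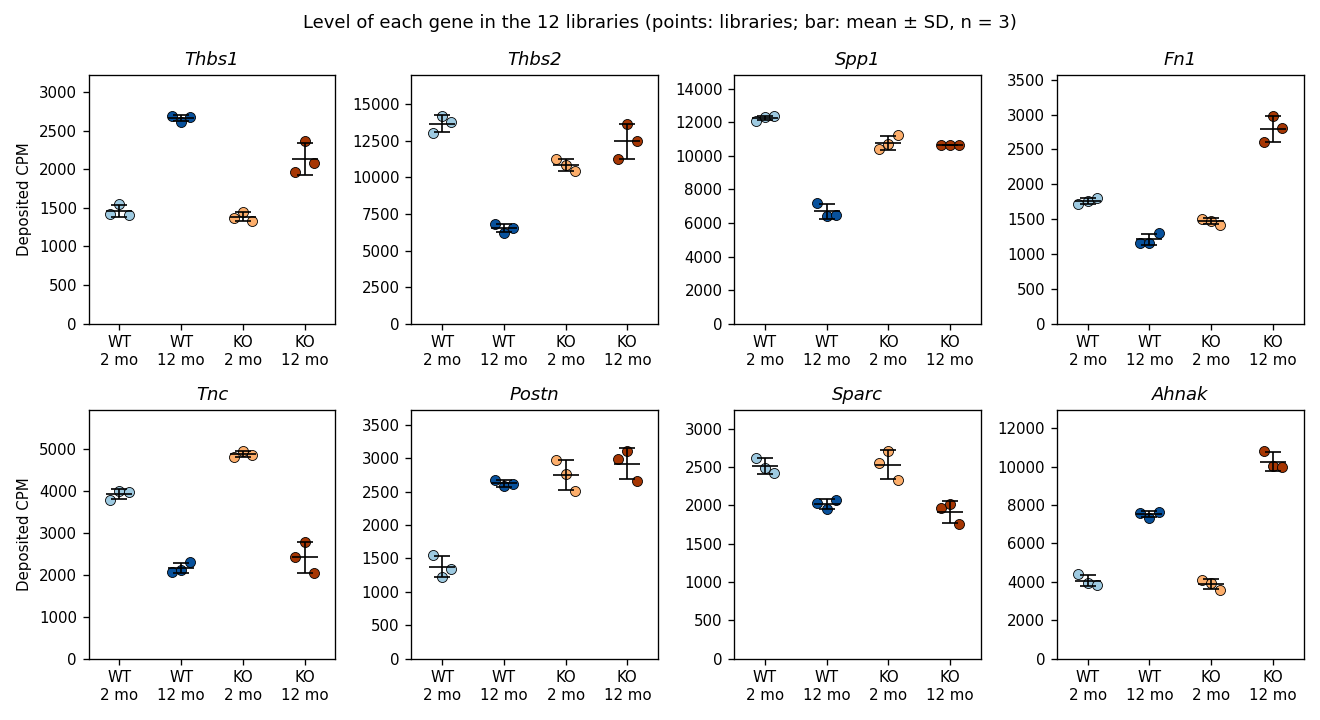
Level of each of the 8 genes in every library, in deposited CPM, with 1 panel per gene and the 4 groups side by side; points are libraries and the bars are group means. Thbs2 and Spp1 are lowest in aged WT, Postn is lowest in young WT, and Ahnak is highest in aged KO.

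Longer transcripts collect more reads, so the genes were also compared per kilobase of the longest transcript annotated in GENCODE vM21. On that scale Spp1, with a transcript of 1507 bases, had the highest level at 6693 CPM per kilobase. Thbs2 followed with 1846 CPM per kilobase and Sparc with 974. Tnc measured 469, Postn 462, Ahnak 355, Thbs1 326 and Fn1 217 CPM per kilobase. Ahnak, at rank 3 of all genes in CPM, has a longest transcript of 18100 bases and stood at place 6 of the 8 per kilobase. For Postn the longest transcript, of 5223 bases, has 2 exons and is not annotated as protein-coding. Its longest protein-coding transcript has 3205 bases and 22 exons. With that length Postn measured 754 CPM per kilobase and stood at place 4 of the 8, above Tnc. The order depends on the transcript chosen for other members too. With the median transcript length, Ahnak (1188 bases) stood at place 2 with 5413 CPM per kilobase, Thbs2 at place 3 with 2750 and Tnc at place 8 with 479, while Spp1 stayed at place 1 with 7153.

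**Figure D2:**
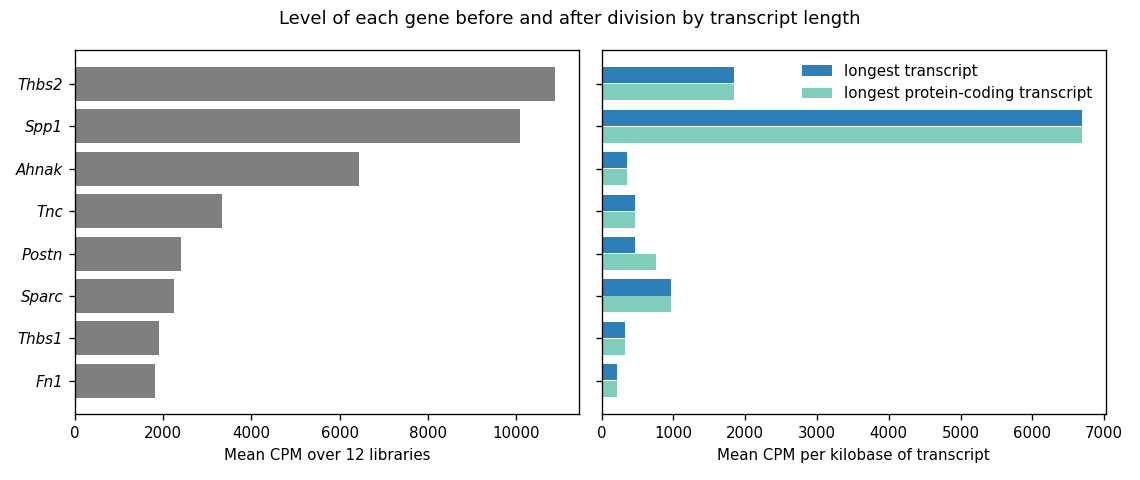
Mean level of each gene over the 12 libraries in CPM (left) and in CPM per kilobase of transcript (right), with the longest transcript and the longest protein-coding transcript as bars of different colour. Spp1 stands at 6693 CPM per kilobase and Ahnak at 355, where in CPM they are at 10086 and 6431.

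Together the 8 genes took 3.997% ± 0.0490 of all reads in young WT, 3.42% ± 0.102 in aged WT, 4.03% ± 0.0699 in young KO and 4.35% ± 0.146 in aged KO (SD, n = 3). The shares of aged WT, from 3.30% to 3.48%, lay below those of every other group, and those of aged KO, from 4.21% to 4.50%, lay above them. The top place of aged KO depended on Ahnak, which is no matrix gene. Ahnak alone took 0.396%, 0.818%, 0.405% and 0.981% as means of young WT, aged WT, young KO and aged KO. With Ahnak left out, aged KO lay below both young groups and above aged WT. Shares are taken within a library and do not depend on how libraries were scaled.

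**Figure D3:**
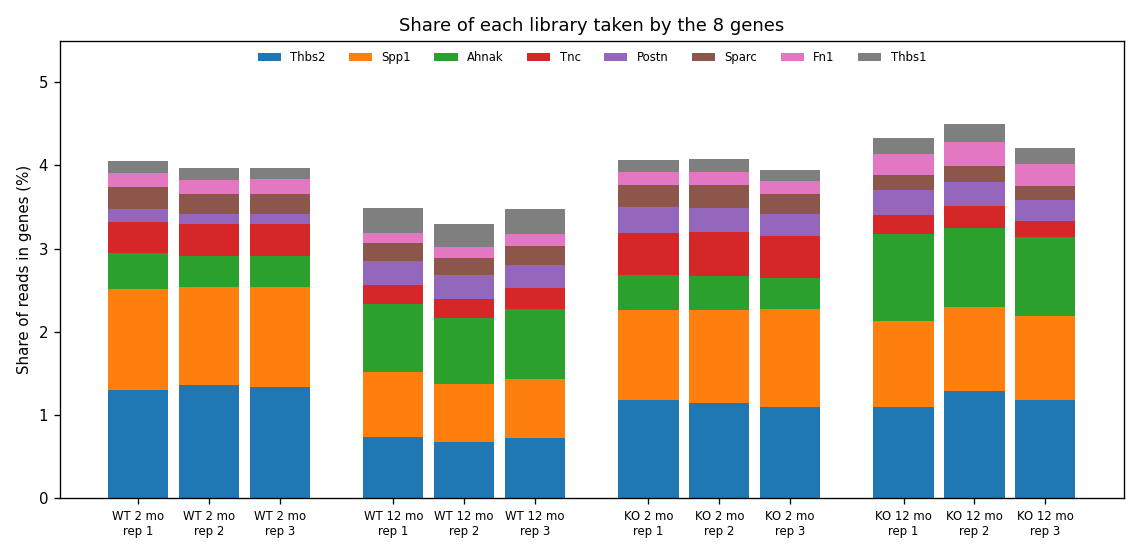
Share of all reads in genes taken by the 8 genes, in percent, stacked by gene for each of the 12 libraries. The summed share, with Ahnak included, is 3.30% to 3.48% in aged WT and 4.21% to 4.50% in aged KO.

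Differences between groups were tested with limma on log2(CPM + 0.5) for 13961 genes, those averaging 0.5 CPM or more, and all 8 members passed this filter. A gene was called at a Benjamini-Hochberg adjusted p under 0.05. Many genes differed in these data, and the members' counts stand against that background. For age in WT (12 against 2 months), 58.0% of all tested genes were called (22.3% higher, 35.6% lower), and all 8 members were: 3 higher (Thbs1, Postn, Ahnak) and 5 lower (Thbs2, Spp1, Tnc, Sparc, Fn1). For age in KO, 67.0% of genes were called (32.9% higher, 34.2% lower), and 6 of the 8 members: 4 higher (Thbs1, Thbs2, Fn1, Ahnak) and 2 lower (Tnc, Sparc). For genotype at 2 months (KO against WT), 16.1% of genes were called (1.86% higher, 14.2% lower), and 4 of the 8 members: Postn and Tnc higher, Thbs2 and Fn1 lower. For genotype at 12 months, 70.2% of genes were called (31.3% higher, 38.9% lower), and 5 of the 8 members: Thbs2, Spp1, Fn1 and Ahnak higher, Thbs1 lower. The difference between the age effects, KO minus WT, was called for 57.7% of genes (31.4% higher, 26.2% lower) and for 6 of the 8 members: Thbs2, Spp1, Fn1 and Ahnak with a higher age effect in KO, Thbs1 and Postn with a lower one. The median log2 fold changes of the 8 members in these comparisons were -0.43, 0.14, -0.07, 0.30 and 0.21, beside -0.08, -0.02, -0.09, -0.07 and 0.02 over all genes tested. The libraries of the compared groups did not overlap for 8 members by age in WT (62.3% of all tested genes), 5 by age in KO (72.9%), 5 by genotype at 2 months (32.1%) and 5 by genotype at 12 months (73.9%). The comparisons share groups, so they are not independent of each other.

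The thrombospondin genes moved in opposite directions with age in WT. Thbs2 (chromosome 17, 14665500 to 14694262, minus strand, 22 exons) measured 13038, 14177 and 13792 CPM in young WT and 6829, 6223 and 6566 CPM in aged WT. The aged WT libraries lay below all 9 others, and the fall was -1.06 ± 0.08 on the log2 scale (SE, n = 3; adjusted p = 8.46e-08, limma), a fall of 2.09-fold. In KO the gene measured 11263, 10870 and 10436 CPM at 2 months and 11242, 13668 and 12499 CPM at 12 months. These groups overlap, the difference was 0.20 ± 0.08 (adjusted p = 0.0451, limma), and the call was lost in 14 of 21 alternative settings, with adjusted p from 0.00248 to 0.221. The age effect in KO exceeded that in WT by 1.26 ± 0.11 (adjusted p = 6.84e-07). At 12 months Thbs2 was 0.93 ± 0.08 higher in KO than in WT (adjusted p = 2.68e-07). At 2 months it was lower in KO by the deposited scaling (-0.33 ± 0.08, adjusted p = 0.0128), a call that was lost when all 12 libraries were scaled together (-0.24, adjusted p = 0.0685).

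Thbs1 (chromosome 2, 118111922 to 118127133, plus strand, 22 exons) measured 1420, 1548 and 1404 CPM in young WT and 2684, 2614 and 2675 CPM in aged WT. In KO it measured 1372, 1448 and 1333 CPM at 2 months and 1965, 2365 and 2076 CPM at 12 months. Both aged groups lay above both young groups, which overlapped each other, and aged WT lay above aged KO. The rise with age was 0.87 ± 0.07 in WT (adjusted p = 1.58e-07, limma) and 0.62 ± 0.07 in KO (adjusted p = 3.99e-06). Those age effects differed by -0.25 ± 0.10 (adjusted p = 0.0468), a call that 10 of 20 alternatives lost. At 12 months Thbs1 was lower in KO by -0.32 ± 0.07 (adjusted p = 0.00111), and at 2 months the difference was -0.07 (adjusted p = 0.547), of opposite sign when the libraries were scaled together (0.02). Within a library, 9.39 ± 0.378 reads of Thbs2 came with each read of Thbs1 in young WT, 2.46 ± 0.0817 in aged WT, 7.85 ± 0.350 in young KO and 5.84 ± 0.159 in aged KO (SD, n = 3). No library of 1 group overlapped another group in this ratio, and each of the 4 pairs of groups compared gave p = 0.1 in the exact two-sided permutation test, the smallest that 3 against 3 allows (adjusted p = 0.12 over 12 such comparisons).

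**Figure D4:**
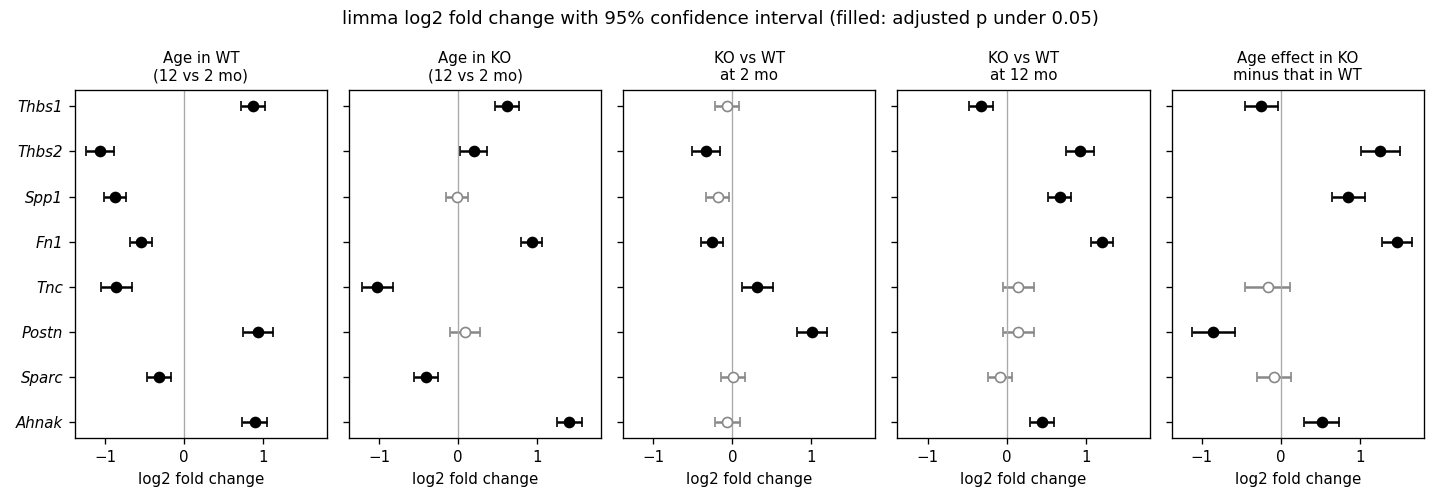
Log2 fold change of each gene, from limma, in the 4 comparisons between groups and for the difference of the age effects (KO minus WT). Bars are 95% confidence intervals, filled points have an adjusted p under 0.05, and 0 marks no difference. With age Thbs2, Spp1 and Fn1 lie below 0 in WT (-1.06, -0.87 and -0.54), while in KO they lie at 0.20, -0.02 and 0.93.

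Spp1 (chromosome 5, 104435111 to 104441053, plus strand, 6 exons), which encodes the secreted phosphoprotein osteopontin, measured 12089, 12304 and 12349 CPM in young WT and 7206, 6420 and 6468 CPM in aged WT. The fall was -0.87 ± 0.07 (adjusted p = 9.29e-08, limma), or 1.83-fold. In KO, Spp1 measured 10385, 10683 and 11224 CPM at 2 months and 10630, 10620 and 10655 CPM at 12 months, so the older libraries lay inside the range of the younger. Its age difference in KO was -0.02, with a 95% interval from -0.16 to 0.13 (adjusted p = 0.837). The age effects differed by 0.86 ± 0.09 (adjusted p = 4.47e-06), and at 12 months Spp1 was 0.67 ± 0.07 higher in KO (adjusted p = 1.07e-06). At 2 months all 3 KO libraries lay below the 3 WT ones, but the difference of -0.19 did not pass the test (adjusted p = 0.0768), and it was -0.10 when all libraries were scaled together (adjusted p = 0.441). The reads of Thbs2 per read of Spp1 were 1.12 ± 0.0368 in young WT, 0.977 ± 0.0344 in aged WT, 1.01 ± 0.0776 in young KO and 1.17 ± 0.115 in aged KO. In the exact permutation test this ratio gave p = 0.1 for age in WT and for genotype at 12 months, and p = 0.2 for age in KO and for genotype at 2 months (adjusted p = 0.12 and 0.20).

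Fn1 (chromosome 1, 71585473 to 71653234, minus strand, 46 exons) had opposite age effects in the genotypes. It measured 1715, 1762 and 1801 CPM in young WT and 1163, 1164 and 1304 CPM in aged WT, a fall of -0.54 ± 0.06 (adjusted p = 7.14e-06, limma). In KO it measured 1502, 1481 and 1420 CPM at 2 months and 2603, 2976 and 2810 CPM at 12 months, a rise of 0.93 ± 0.06 (adjusted p = 3.49e-08). None of the 4 groups overlapped another, in the order aged KO, young WT, young KO, aged WT. The age effects differed by 1.47 ± 0.09 (adjusted p = 1.94e-08), the largest such difference of the 8 members. At 12 months Fn1 was 2.31-fold higher in KO (1.21 ± 0.06, adjusted p = 1.94e-09). At 2 months it was lower in KO (-0.26 ± 0.06, adjusted p = 0.0135), a call lost when all libraries were scaled together (-0.17, adjusted p = 0.107). The deposited values sum all isoforms, so the splice forms of fibronectin were not analysed here.

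Tnc (chromosome 4, 63959785 to 64047015, minus strand, 26 exons), whose protein is a six-armed glycoprotein that modulates adhesion to fibronectin, fell with age in both genotypes. It measured 3772, 3994 and 3954 CPM in young WT, 2071, 2111 and 2297 CPM in aged WT, 4794, 4939 and 4849 CPM in young KO and 2417, 2779 and 2029 CPM in aged KO. Both younger groups lay above both older groups, and the older groups overlapped. The fall was -0.86 ± 0.09 in WT (adjusted p = 2.80e-06, limma) and -1.02 ± 0.09 in KO (adjusted p = 4.48e-07), and the difference of these age effects was not called (-0.17, adjusted p = 0.281), although it was without replicate 2 of aged KO (-0.28, adjusted p = 0.0427). At 2 months Tnc was higher in KO by 0.32 ± 0.09 (adjusted p = 0.0327), a call lost in 7 of 21 alternatives and kept when the libraries were scaled together (0.40, adjusted p = 0.0137). At 12 months the difference was 0.15, with an interval from -0.05 to 0.35 (adjusted p = 0.168), and it was called without replicate 3 of aged KO (0.26, adjusted p = 0.00701).

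Postn (chromosome 3, 54361107 to 54391041, plus strand), whose protein crosslinks collagen with other matrix proteins, was the member that stood apart in young WT. There it measured 1546, 1228 and 1347 CPM. It measured 2674, 2578 and 2617 CPM in aged WT, 2967, 2769 and 2512 CPM in young KO, and 2986, 3105 and 2653 CPM in aged KO. These latter 3 groups overlapped as neighbours in order of their means, and all lay above young WT. The rise with age in WT was 0.94 ± 0.09 (adjusted p = 8.21e-07, limma), whereas in KO the difference was 0.08, with an interval from -0.11 to 0.28 (adjusted p = 0.418). The age effects differed by -0.85 ± 0.13 (adjusted p = 6.61e-05). At 2 months Postn was 2.01-fold higher in KO (1.004 ± 0.09, adjusted p = 1.20e-05), and 1.09 higher when all libraries were scaled together. At 12 months the genotypes differed by 0.15, with an interval from -0.04 to 0.34 (adjusted p = 0.149).

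Sparc (chromosome 11, 55394501 to 55420080, minus strand, 10 exons) varied least of the 8, with a standard deviation of 0.20 on the log2 scale over the 12 libraries. It measured 2618, 2486 and 2416 CPM in young WT, 2024, 1951 and 2074 CPM in aged WT, 2547, 2706 and 2326 CPM in young KO and 1958, 2017 and 1749 CPM in aged KO. It was lower with age in both genotypes, by -0.31 ± 0.07 for WT (adjusted p = 0.00184, limma) and -0.40 ± 0.07 for KO (adjusted p = 0.000215). The genotypes overlapped at both ages, differing by 0.01 in young libraries (adjusted p = 0.955) and by -0.08 in aged ones (adjusted p = 0.316), and the difference of the age effects was -0.09 (adjusted p = 0.454).

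Ahnak (chromosome 19, 8989284 to 9076919, plus strand, 5 exons in its longest transcript) rose with age in both genotypes. It measured 4383, 3963 and 3828 CPM in young WT, 7583, 7337 and 7645 CPM in aged WT, 4082, 3953 and 3585 CPM in young KO and 10813, 10030 and 9966 CPM in aged KO. The young groups overlapped, aged WT lay above them and aged KO lay above all. The rise was 0.89 ± 0.07 in WT (adjusted p = 1.78e-07, limma) and 1.41 ± 0.07 in KO (adjusted p = 2.28e-09), with age effects that differed by 0.52 ± 0.10 (adjusted p = 0.000796). At 12 months Ahnak was 0.45 ± 0.07 higher in KO (adjusted p = 1e-04), and at 2 months the difference was -0.07 (adjusted p = 0.605), of opposite sign when the libraries were scaled together (0.02). Its reads per read of Thbs2 went from 0.298 ± 0.0333 to 1.15 ± 0.0362 with age in WT and from 0.357 ± 0.0113 to 0.831 ± 0.118 in KO, with p = 0.1 in each exact permutation test.

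**Figure D5:**
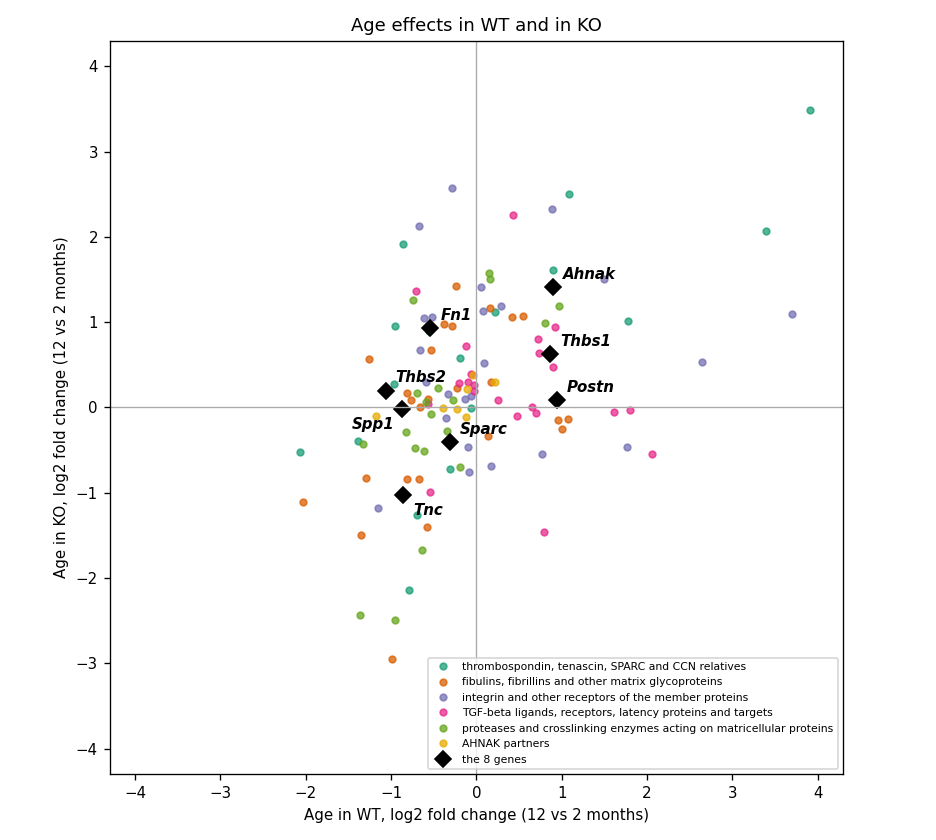
Log2 fold change with age in WT (horizontal axis) against that in KO (vertical axis) for each of the 8 genes. Genes of the pathway lists are drawn as coloured points, and a line on each axis marks no change. Among the 8 genes, Fn1 has the largest difference between its age effects (-0.54 in WT, 0.93 in KO). Postn has a higher age effect in WT than in KO (0.94 and 0.08), and Tnc and Sparc are lower with age in both.

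Cell type markers moved together with several of these results. In aged WT, where Thbs2, Spp1 and Fn1 were lowest and Thbs1 highest, all 10 luminal markers were called higher than in young WT and 9 of 10 fibroblast markers lower. Of all tested genes, 22.3% were called higher and 35.6% lower in that comparison. The summed fibroblast markers ranged from 11622 to 12497 CPM in young WT, 7507 to 7903 in aged WT, 10884 to 12076 in young KO and 9633 to 10848 in aged KO. With age in KO its genes moved in opposite directions: Col3a1 fell from 5045 to 2481 CPM and Dcn rose from 2525 to 4137 CPM. There 4 of the 10 were called higher and 5 lower, beside 32.9% and 34.2% of all tested genes. The 8 basal and myoepithelial markers summed to 51.2 to 62.2, 219 to 230, 64.4 to 66.7 and 79.4 to 82.2 CPM in the same order of groups. The 9 leukocyte and macrophage markers found, among cells that can make osteopontin, summed to 1247 to 1490, 1004 to 1064, 1017 to 1138 and 399 to 739 CPM. That sum was lowest in aged KO and followed mainly Lyz2 (905, 645, 683 and 281 CPM as group means in the same order), whereas Mrc1 was highest in aged KO (121, 71.8, 93.2 and 179 CPM). The 8 endothelial markers, from cells that can make fibronectin, summed to 126 to 140, 138 to 148, 77.5 to 82.4 and 308 to 336 CPM, highest in the group where Fn1 was highest. The 10 skeletal muscle markers, also lowest in aged WT, summed to 1073 to 1274, 202 to 225, 314 to 360 and 848 to 1590 CPM, and the 7 mast cell markers to 124 to 141, 43.2 to 54.3, 29.9 to 32.1 and 169 to 198 CPM. The 8 pericyte and smooth muscle markers summed to between 208 and 303 CPM in all libraries. The 6 adipocyte markers summed to 203 to 218, 148 to 174, 194 to 204 and 341 to 355 CPM. That sum was highest in aged KO, as were Fn1 and Ahnak. Only 3 of these 6 markers passed the filter on low values. With age in KO 2 of them were called higher and 1 lower, beside 32.9% and 34.2% of all tested genes. No marker of any list was at 0 in all libraries. The part of these markers in the results was not tested.

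The closest relatives of the members mostly lay far below them in CPM. Of 25 relatives listed (other thrombospondins, tenascins, SPARC family, CCN proteins, spondins and bone sialoprotein relatives of Spp1), 17 passed the filter on low values. With age, 6 were called higher and 9 lower in WT, and 11 higher and 5 lower in KO, beside 58.0% and 67.0% of all tested genes called in either direction. Their medians were -0.31 and 0.90, beside -0.08 and -0.02 over all genes tested. Thbs3 was called in no comparison, at 15.8 to 16.9 CPM as group means. Thbs4 rose with age in KO (0.58 ± 0.09) and was 1.34 higher in KO than in WT at 12 months. Tnxb, encoding the tenascin of loose connective tissue, fell with age in WT from 55.7 to 30.1 CPM and rose in KO from 29.8 to 115 CPM, and the difference of age effects was 2.78 ± 0.18 (adjusted p = 3.14e-08, limma). Sparcl1, the relative of Sparc, fell with age in WT (-0.31 ± 0.05) and KO (-0.72 ± 0.05), as Sparc did. Among CCN genes, Wisp2 rose with age in both genotypes (3.92 and 3.49) and Cyr61, a target of several growth signals, rose in KO from 36.7 to 210 CPM (2.50 ± 0.08) and in WT from 36.8 to 78.6 CPM (1.09). Smoc1 rose in WT from 1.89 to 24.6 CPM (3.39 ± 0.11) and in KO from 1.73 to 8.90 CPM (2.07). At 2 months 3 relatives were called higher and 6 lower in KO, and 4 and 4 when all libraries were scaled together. At 12 months 10 were called higher and 5 lower in KO. Of all tested genes, 1.86% were called higher and 14.2% lower at 2 months, and 31.3% and 38.9% at 12 months.

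Of 24 genes for receptors of the member proteins, 7 were called higher and 8 lower with age in WT, and 14 higher and 7 lower in KO, with medians of -0.07 and 0.53. Over all tested genes the medians were -0.08 and -0.02, with 22.3% called higher and 35.6% lower in WT and 32.9% higher and 34.2% lower in KO, so the share of receptor genes called in WT was near that of all genes. The age effect was greater in KO for 13 of them and smaller for 6, beside 31.4% and 26.2% of all tested genes. Itgb8 (3.70 ± 0.10) and Itga3 (2.64 ± 0.08), integrin chains found on epithelium, rose with age in WT, and by less in KO (1.09 and 0.54). Lrp1, the endocytic receptor that takes up thrombospondins, rose in KO from 743 to 3262 CPM (2.13 ± 0.11) and fell in WT (-0.68). Itga11, a collagen-binding integrin chain of fibroblasts, rose in KO by 2.57 ± 0.14 and was not called in WT (-0.28). The fibronectin receptor chain Itga5 fell with age in WT (-0.67 ± 0.07) and rose in KO (0.67 ± 0.07), and Itgav did likewise (-0.59 ± 0.09 and 0.30 ± 0.09), as did Itgb3 (-0.62 ± 0.06 and 1.05 ± 0.06) and Cd47, which encodes the thrombospondin receptor (-0.52 ± 0.06 and 1.06 ± 0.06). Cd44, for the osteopontin receptor, did not pass the test in WT (0.05 ± 0.05) and rose in KO (1.41 ± 0.05). The last 5 genes were chosen after their values were seen. For each the difference of the age effects was called, at 1.34, 0.89, 1.66, 1.59 and 1.36. Other receptor genes moved otherwise. Cd36, for another thrombospondin receptor, fell in WT (-1.15 ± 0.10) and in KO (-1.18 ± 0.10), and its age effects did not differ by the test. Itgb6 rose in WT (1.76 ± 0.09) and fell in KO (-0.46 ± 0.09). At 2 months none of the 24 was called higher and 7 were called lower in KO, against 3 and 3 when all libraries were scaled together. By the deposited scaling, 1.86% of all tested genes were called higher and 14.2% lower at 2 months.

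Among 22 genes of TGF-beta signalling, the pathway that thrombospondin 1 can activate and of which several members are known targets, 12 were called higher and 3 lower with age in WT, and 11 higher and 3 lower in KO, with medians of 0.45 and 0.23. Over all tested genes, 22.3% were called higher and 35.6% lower in WT, and 32.9% and 34.2% in KO, where the share called in either direction, 67.0%, was near that of the 22 genes. Ltbp2, which encodes a matrix protein, rose in WT (2.06 ± 0.20) and fell in KO (-0.55). The ligand gene Tgfb3 rose in WT (0.79 ± 0.07) and fell in KO (-1.45 ± 0.07), a difference of age effects of -2.24 ± 0.09. The coreceptor gene Tgfbr3 rose in KO (1.36 ± 0.05) and fell in WT (-0.70), and its age effects differed by 2.06 ± 0.07. At 12 months 8 of the 22 were called higher and 10 lower in KO, and at 2 months 2 and 4. The shares over all tested genes were 31.3% and 38.9% at 12 months, and 1.86% and 14.2% at 2 months.

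The 20 genes for proteases and crosslinking enzymes that act on these proteins were mostly lower with age in WT, with 3 called higher and 15 lower (median -0.60). In KO 6 were called higher and 8 lower (median -0.04). Of all tested genes, 22.3% were called higher and 35.6% lower in WT, and 32.9% and 34.2% in KO. Mmp3, the gene of a broad matrix protease, was 1.46 ± 0.06 higher in KO at 12 months, at 6744 against 2445 CPM, and Lox, for a collagen crosslinking enzyme, was 1.43 ± 0.11 higher there. Mmp9 fell with age in WT and KO (-1.37 and -2.43), and so did Mmp12, the gene of a macrophage protease (-0.95 and -2.50). Of 25 fibulin, fibrillin and other matrix glycoprotein genes, 5 were called higher and 14 lower with age in WT. In KO 10 were called higher and 8 lower, beside the same shares of all tested genes. Efemp1 (-2.03 in WT, -1.11 in KO) and Edil3 (-0.99 in WT, -2.95 in KO) fell in both, and Fbn2 was 2.18 ± 0.10 higher in KO at 12 months. Of 7 genes for partners of the AHNAK protein, 1 was called higher and 3 lower with age in WT, and 2 higher and none lower in KO. These counts too stand beside 22.3% and 35.6% of all tested genes in WT, and 32.9% and 34.2% in KO. In KO S100a10 rose by 0.38 ± 0.05, beside the rise of 1.41 for Ahnak.

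Genes with the pattern most like each member over the 12 libraries were found by Pearson correlation of log2(CPM + 0.5), as a description; the libraries share groups and scaling, and 6228 other genes were compared (6229 for Sparc). Like Thbs1 were Lrrc16a (r = 0.99), the basal keratin gene Krt5 (0.99) and Smoc1 (0.99). Like Thbs2 were Gfra2, Xkr8 and Snx9 (0.98 to 0.99), of which Snx9 measured 318, 193, 268 and 306 CPM as means of young WT, aged WT, young KO and aged KO. Like Spp1 were Grb10, Rcn1 and Cap2 (all 0.98). Like Fn1 were Tgfbr3, Ifitm3 and Gfpt2 (all 0.99), and Tgfbr3 measured 402, 247, 310 and 798 CPM in the same order of groups. Tnc was most like Mcpt8, Nostrin and Col24a1 (0.98 to 0.99), Sparc most like the Notch ligand gene Jag1, Creg2 and Mms22l (0.97 to 0.98), and Ahnak most like Usp53, Arrdc4 and Enpp4 (all 0.99). Postn had weaker matches, with Lama1 at 0.94, the growth factor gene Vegfc at 0.90 and Mmp8 at 0.87.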

How the data were processed

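Gene expression was measured by RNA sequencing of total RNA in 12 mammosphere libraries. Per the submitters' processing notes, the authors used TopHat2 2.1.0, Bowtie2 2.2.4, SAMtools 0.1.18 and HTSeq 0.6.1p1 with mm10. The annotation and strand setting were not given in these sources. Per the file headers, the signal values the authors deposited are CPM after TMM scaling (trimmed mean of M-values) in edgeR. Whole reads were recovered from them, with 100% of values within 0.1 of a whole read. Within 5e-04 log2, the deposited scaling factors of all KO libraries are those of TMM on KO alone, those of aged WT come from the aged libraries of both genotypes, and those of young WT were found with no set of these groups, so that columns differ in scale. TMM over all 12 libraries moved the median log2 fold change of all genes by 0.0587 for age in WT, -0.004 for age in KO, 0.0833 for genotype at 2 months, 0.02 for genotype at 12 months and -0.0629 for the interaction.

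With limma 3.58.1 under R 4.3.3, log2(CPM + 0.5) of the 13961 genes averaging 0.5 CPM or more was modelled on the 4 groups, using limma's trend option (8 residual degrees of freedom). Benjamini-Hochberg adjustment ran over all tested genes within each comparison, at 0.05. Ratios of reads were compared with exact permutation tests. edgeR 4.0.16 and DESeq2 1.42.0 on the recovered reads, other pseudocounts, filters and scalings, a replicate block and leaving out each library were alternatives. The fits were also run on simulated counts in which few genes changed, as many up as down, in aged WT alone. Far more genes were called in the real data, and the deposited columns differ in scale. That run therefore does not show the rate of false calls here. Replicates differed by more than counting noise (chi-square per gene of 6.04 to 71.5), so no library was taken for a second deposit of another; this does not show that they came from separate cultures.

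The members, gene lists and markers were chosen with earlier results of these data known. The text names the 8 members and listed paralogues; per list and comparison up to 3 called genes with the largest fold change and a mean of at least 1 CPM; and per member the 3 genes with the highest correlation among tested genes with an SD of at least 0.3, predicted genes left out. Some genes the rule allows are left out; Shc1 and cell type markers are also named, and Itga5, Itgav, Itgb3, Cd47 and Cd44 lie outside the rule and were chosen after their values were seen. Genes below the filter were the relatives Comp, Tnn, Spock1, Spock3, Wisp3, Ibsp and Mepe and the adipocyte markers Plin1, Lep and Cfd. The relative Ahnak2 had no row. Other annotated genes overlap Thbs1 (Gm29233), Spp1 (Gm42793), Tnc (8030451A03Rik) and Fn1 (Apol7d), and without the strand setting their reads cannot be told apart. Coordinates are 1-based on mm10, lengths from GENCODE vM21 and promoters from RefSeq on GRCm38.p6.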

Additional observations from a re-analysis of the deposited data

Results flagged for a closer look

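The age effects of 6 members differed between KO and WT in the test of the difference itself (limma interaction, KO minus WT, log2 scale). The differences were 1.47 for Fn1, 1.26 for Thbs2, 0.86 for Spp1, 0.52 for Ahnak, -0.85 for Postn and -0.25 for Thbs1. The call for Thbs1 was marginal (adjusted p = 0.0468, limma) and was lost in 10 of 20 alternatives. Those of Fn1, Thbs2, Spp1, Ahnak and Postn were kept in all 20. For Fn1 the direction of the age effect was opposite in the genotypes, with a called change in each. For Spp1 and Postn an age effect was called in WT alone. Over all genes tested, 57.7% had a called difference.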

How the results depend on the processing

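Of 832 recomputed values for the members, 778 kept direction and side of the threshold, 41 lost and 3 gained a call, and 10 changed sign, all of the latter for values not called. Those were Spp1 for age in KO (0.0164 with DESeq2, -0.0421 to 0.0139 over left-out libraries), Thbs1 for genotype at 2 months (0.015 with TMM over all libraries, 0.0297 with edgeR, 0.0164 with DESeq2), Ahnak there (0.0215, 0.0355 and 0.0219 in the same order), and Sparc there (-0.0416 to 0.0675 over left-out libraries). The cause was not tested.

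Counts at 2 months moved both with scaling and with single libraries. Called genes numbered 2245, against 1458 with TMM over all libraries, 1414 with edgeR and 1407 (without replicate 1 of young KO) to 3033 (without replicate 1 of young WT) over left-out libraries, and 1493 without replicate 3 of young KO. The share of called genes that were higher in KO was 11.54%, against 29.22% with TMM over all libraries, 33.52% with edgeR and 30.63% with DESeq2. For age in WT that share was 38.56%, against 50.86% with edgeR. Called members at 2 months numbered 4, against 2 with no filter, with TMM over all libraries and with edgeR, and 1 (without replicate 3 of young KO) to 4 over left-out libraries, with 2 without replicate 2 or 3 of young WT. Elsewhere, left-out libraries gave 8 to 8 called members for age in WT, 5 to 6 for age in KO, 5 to 6 for genotype at 12 months and 5 to 7 for the interaction. Counts over the 6 pathway lists moved by more than 1.5 times in 31 of 624 recomputations, 27 of them at 2 months.

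Replicate numbers were not taken to pair the samples, since not every same-numbered pair had a correlation above 0.1: the 18 such pairs had correlations of -0.163 to 0.589 (median 0.0925, 8 above 0.1), and the 36 differently numbered pairs -0.561 to 0.418 (median -0.056, 7 above 0.1). With the replicate block, 8453, 9681, 2590, 10079 and 8517 genes and 8, 5, 4, 5 and 6 members were called in the 5 comparisons, and Thbs2 lost its call for age in KO (adjusted p = 0.0560, limma). With 3 libraries per group, small differences could go undetected.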
